A study of Mus musculus with 9 samples.

Results

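The replication-dependent histone genes of mouse erythroblasts were taken as every listed gene whose symbol begins with Hist1 to Hist4 followed by h1, h2a, h2b, h3 or h4. The rule found 61 of the 20368 listed rows: 5 of H1, 18 of H2A, 17 of H2B, 7 of H3, 13 of H4 and 1 row that joins Hist1h1e (H1) with Hist1h2be (H2B). RNA sequencing had been carried out on CD71+Ter119+ cells, called erythroblast population II by the submitters, which had been sorted out of spleen from C57BL/6 mice aged 4 weeks. There were 3 knockout libraries (Dhh-/-), 3 heterozygous libraries (Dhh+/-) and 3 wildtype libraries. Dhh encodes Desert hedgehog, a secreted signalling ligand. The labels name no transgene and no treatment, and they say neither how the null allele was made nor whether each library stands for a separate animal. The p-values therefore reflect only how far these libraries lie apart, which may be technical.

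Histone proteins package DNA. An octamer of H2A, H2B, H3 and H4 forms the core of the nucleosome, and H1 binds the DNA that links nucleosomes. The replication-dependent genes are transcribed mainly in S phase, when new DNA has to be packaged, and most of their mRNAs end in a conserved hairpin bound by SLBP in place of a poly(A) tail. Erythroblasts divide several times while their nuclei condense, before the nucleus is expelled.

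All values are FPKM (nominally reads per kilobase of gene model and per 1e6 reads, with libraries scaled by size factors and not by their own totals). The reads that could be recovered from them numbered 7.05 to 14.23 M per library (M, 1e6 reads), with heterozygous replicate 2 the shallowest. Knockout replicate 2 and wildtype replicates 1 and 2 were also under 10 M. Dhh was listed at 0 in 8 libraries, wildtype ones included, which leaves the genotype labels unchecked by it. The erythroid identity of the sort was visible in Hbb-bs (adult beta-globin), at 4646, 8129 and 5118 FPKM in knockout, 4022, 8985 and 4212 FPKM in heterozygous and 8711, 7642 and 5453 FPKM in wildtype libraries. Wildtype replicate 3 stood apart in its markers of other blood cells: it was the lowest library for 35 of 35 tested B cell, T and NK cell, and macrophage and monocyte markers. Cd74, the most abundant B cell marker, was at 181.7, 509.4 and 384.5 FPKM in knockout, 360.2, 360.8 and 462.2 FPKM in heterozygous, and 750.7, 269.4 and 49.6 FPKM in wildtype libraries.

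The hairpins are shown because they set the H4 genes apart from the other families. A hairpin of 16 bases (a 6-base stem that opens with GG, and a 4-base loop that opens with TT) was searched for in the GENCODE M21 transcripts. It was found in 41 of the 62 member genes (the joint row split) and in 0.334% of all 55450 genes of the annotation. Capitals mark the stem and lower case the loop, in DNA letters, 5′ to 3′.
Hist1h2bg, Hist1h1c, Hist3h2a and others, 24 genes: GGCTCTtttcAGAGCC
Hist1h2bb, Hist1h3c and others, 5 genes: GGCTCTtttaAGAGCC
Hist2h2ac, 1 gene: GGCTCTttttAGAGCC
Hist1h4d, Hist1h4c and others, 7 genes: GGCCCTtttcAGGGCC
Hist1h4i and Hist2h4, 2 genes: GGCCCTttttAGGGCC
Hist1h4b and Hist1h4j, 2 genes: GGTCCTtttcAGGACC
The first stem was carried by all 30 hairpin genes of H1, H2A, H2B and H3, and by 0 of the 11 hairpin genes of H4, which had the other stems. No hairpin of this form in a transcript model says only that these letters are not in the model. Models without it were of coding length, such as Hist1h4k at 312 bases, or longer, such as Hist1h2bc at 1156 and Hist2h2be at 2620 bases. The FPKM values imply a separate set of model lengths. These were 312 bases for 7 H4 genes, 381 bases for 7 H2B genes, 393 bases for 7 H2A genes and 411 bases for 3 H3 genes, each a whole number of codons. Hist1h4d, at 312 bases in that set, has 1138 bases and the hairpin in M21.

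Promoters also differed by family. RefSeq windows (GRCm38.p6, from 250 bases before to 50 bases after the start) were present for 54 member genes. They were searched on both strands for the CCAAT box, for the core of the octamer element bound by POU factors, written TTTGCAT, and for the TATA box, written TATAAA. No motif contains another, though neighbouring ones can share an end base. CCAAT was present in 83.3% of the member windows and in 37.4% of all 32851 windows. It was in 100% of the windows of H1, H2A, H2B and H3 and in 25% of those of H4. The octamer core was in 43.8% of H2A and 43.8% of H2B windows, in 8.33% of H4 windows and in 4.63% of all windows. TATAAA was in 57.4% of member windows and 13.6% of all windows. Windows of 3 genes described below are printed, with the motifs or their reverse complements in capitals.
Hist1h2bg (H2B), chr13:23571150-23571449, plus strand: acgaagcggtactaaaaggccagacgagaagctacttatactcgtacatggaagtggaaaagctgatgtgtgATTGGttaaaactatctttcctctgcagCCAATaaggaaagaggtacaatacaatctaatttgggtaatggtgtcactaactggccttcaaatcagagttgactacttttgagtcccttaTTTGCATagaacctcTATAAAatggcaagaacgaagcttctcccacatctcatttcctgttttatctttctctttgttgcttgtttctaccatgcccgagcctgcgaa
Hist1h1c (H1), chr13:23738557-23738856, plus strand: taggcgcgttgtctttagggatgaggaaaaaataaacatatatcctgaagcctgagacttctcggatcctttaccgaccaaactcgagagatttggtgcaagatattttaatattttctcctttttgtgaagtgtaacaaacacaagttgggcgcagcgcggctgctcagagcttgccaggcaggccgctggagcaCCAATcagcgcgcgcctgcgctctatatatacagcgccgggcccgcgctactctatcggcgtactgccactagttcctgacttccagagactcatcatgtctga
Hist1h4d (H4), chr13:23581318-23581617, plus strand: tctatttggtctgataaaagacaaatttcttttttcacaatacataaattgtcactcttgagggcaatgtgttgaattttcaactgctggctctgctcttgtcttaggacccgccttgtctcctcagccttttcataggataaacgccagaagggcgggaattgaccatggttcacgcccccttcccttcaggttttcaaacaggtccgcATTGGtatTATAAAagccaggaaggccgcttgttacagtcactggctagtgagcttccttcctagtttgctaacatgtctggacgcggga
The Hist1h2bg window overlaps that of Hist1h2ae, an H2A gene read from the other strand, so both share its 2 CCAAT boxes and its octamer core.

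The members were a small part of these transcriptomes. In such bulk samples, fewer cells with a transcript and less of it per cell cannot be told apart. Summed over all 61 rows they took from 0.059% of the listed FPKM in knockout replicate 2 to 0.134% in knockout replicate 1. A few genes carried most of that sum. 7 members averaged 10 FPKM or more over the 9 libraries, and they held 61.7% of the summed member FPKM. This line was drawn after the values were seen. Just inside it lay Hist2h2be at 10.9 FPKM and just outside it Hist1h4d at 8.74 FPKM. 42 further members passed the filter for testing (3 or more libraries at 1 FPKM or above), 8 were above 0 in some library without passing it, and 4 were listed at 0 in every library. The last 4 were Hist1h2aa and Hist1h2ba, known as testis genes, and Hist1h2ap and Hist1h4n, which have near-identical copies.

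By family, H2B held 47.6% of the summed member FPKM, H4 21.5%, H1 13.7%, H2A 12.5% and H3 4.02%. Within H1, which compacts the fibre between nucleosomes, Hist1h1c held 75.8% of the family sum. Within H4 the leading gene was Hist1h4i with 46.5%, and within H2B it was Hist1h2bc with 30.4%. H2A and H3 were spread more evenly: Hist3h2a held 24.2% of H2A and Hist2h3b 22.6% of H3. These shares compare levels per kilobase of gene model, and a library made from poly(A) RNA would undercount transcripts that end in the hairpin. Whether poly(A) RNA was selected is not given in the sources used here.

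**Figure D1:**
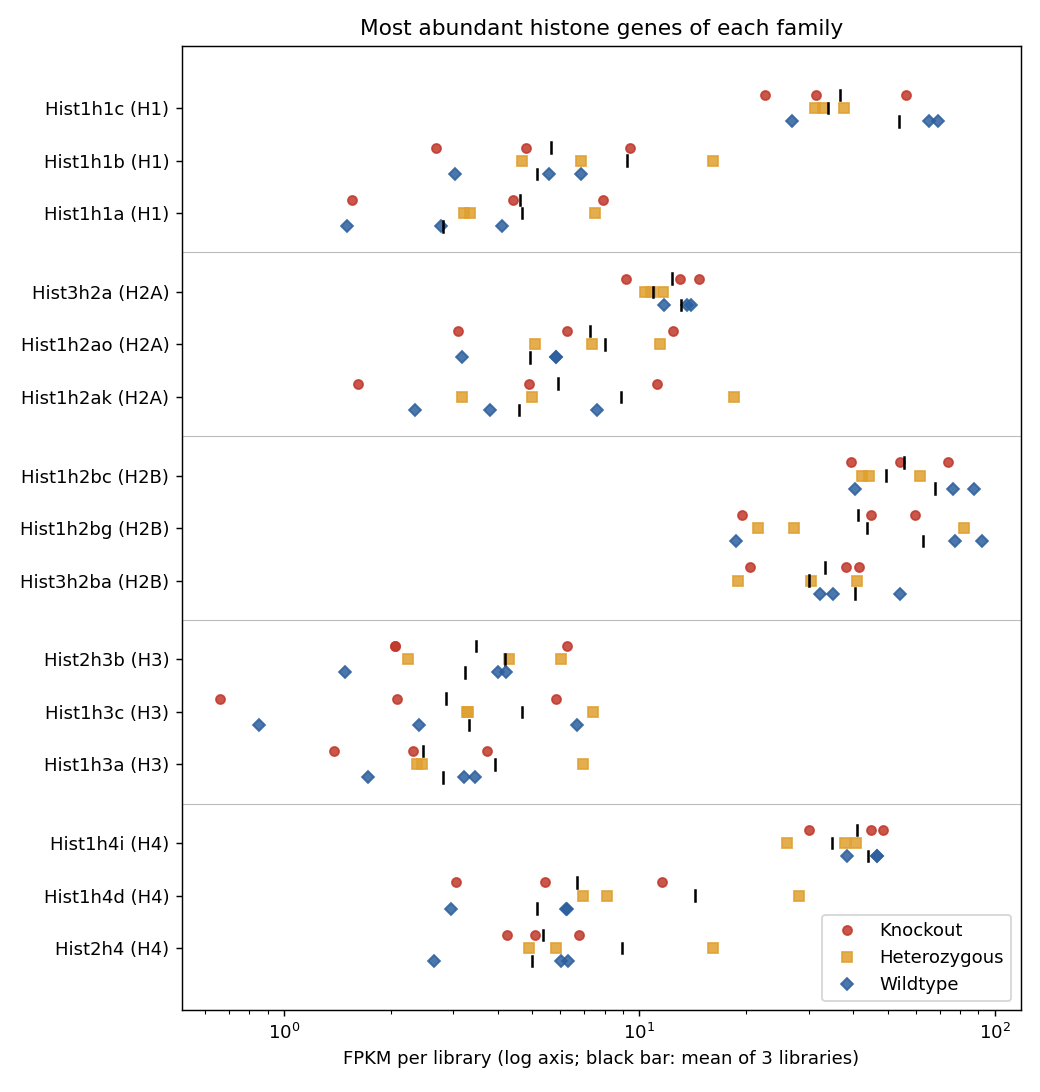
FPKM in each library (log axis) of the 3 most abundant members of each family, with knockout above heterozygous above wildtype and a black bar at the mean of 3 libraries. The means of Hist1h1c, Hist1h4i, Hist1h2bc, Hist1h2bg and Hist3h2ba lie above those of the other genes shown, and the genotypes overlap for every gene shown except Hist3h2a and Hist1h4d in heterozygous against wildtype.

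Hist1h2bc (chr13:23684199-23692908, plus strand, mm10) was the most abundant member. It had 73.7, 39.4 and 54.2 FPKM in knockout, 61.7, 42.4 and 44.4 FPKM in heterozygous and 87.5, 40.5 and 76.2 FPKM in wildtype libraries. Replicate 2 was the lowest library of every genotype, and the genotypes overlapped. The log2 difference was -0.26 ± 0.32 (SE) for knockout versus wildtype and -0.40 ± 0.32 for heterozygous versus wildtype, with limma adjusted p of 0.9997 and 0.9999 over all genes.

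Hist1h2bg, a second H2B gene (chr13:23571396-23572013, plus strand), had 59.7, 19.4 and 45.0 FPKM in knockout, 82.0, 21.6 and 27.3 FPKM in heterozygous and 92.4, 18.8 and 77.6 FPKM in wildtype libraries. Its replicates lay further apart than those of Hist1h2bc, and replicate 2 was again lowest in each genotype. Hist3h2ba, an H2B gene of the small cluster on chromosome 11, had 41.4, 20.5 and 38.2 FPKM in knockout, 40.9, 19.0 and 30.3 FPKM in heterozygous and 35.1, 32.3 and 54.3 FPKM in wildtype libraries.

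The linker histone gene Hist1h1c (chr13:23738808-23740367, plus strand) had 56.4, 22.6 and 31.4 FPKM in knockout, 37.7, 31.2 and 32.8 FPKM in heterozygous and 65.5, 26.9 and 69.1 FPKM in wildtype libraries. Wildtype replicates 1 and 3 lay above all other libraries, while wildtype replicate 2 lay below all but 1. Its difference for knockout versus wildtype was -0.52 ± 0.39 (log2, SE), with a 95% interval of -1.41 to 0.37 and a limma adjusted p of 0.9997. Hist1h1b and Hist1h1a, further H1 genes, averaged 6.67 and 4.04 FPKM over the 9 libraries.

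Hist1h4i (chr13:22040636-22041362, minus strand) was the steadiest of the leading genes after Hist3h2a. It had 48.5, 29.95 and 44.8 FPKM in knockout, 37.9, 26.0 and 40.7 FPKM in heterozygous and 46.8, 38.4 and 46.7 FPKM in wildtype libraries. Hist3h2a, an H2A gene of the chromosome 11 cluster, had 14.8, 9.20 and 13.1 FPKM in knockout, 11.6, 10.4 and 10.8 FPKM in heterozygous and 14.0, 13.6 and 11.8 FPKM in wildtype libraries. All 3 heterozygous libraries were below all 3 wildtype libraries for Hist3h2a. Its log2 difference was -0.24 ± 0.17 (SE) for heterozygous versus wildtype, with a limma adjusted p of 0.9999.

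The leading genes shared features that the rule did not use. All 7 had gene models over 500 bases in the lengths implied by the FPKM values, against 18 of the 51 other member genes with such a length (the 4 listed at 0 in every library have none). A canonical poly(A) signal lay in the last 50 bases of the annotated transcript in 5 of the 7 leading genes, against 11 of the 55 others. The hairpin was in 5 of the 7 and in 36 of the 55. These counts describe the annotation. A model that stops at the coding sequence takes in no reads from a longer 3′ end, so the annotated length and the level are not independent measures.

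Many H2A and H2B genes stand head to head and start less than 500 bases apart. There were 12 such pairs, 175 to 305 bases apart, and 9 had both members above 0.5 FPKM on average. The H2B gene was higher than its H2A partner in all 9 libraries in 4 of these 9 pairs, and the H2A gene was higher in all 9 libraries in 0. Hist1h2bc averaged 57.8 FPKM beside 1.99 FPKM for Hist1h2ac, a ratio of 29.1 across 250 bases. Hist1h2bg averaged 49.3 FPKM beside 1.68 FPKM for Hist1h2ae, a ratio of 29.3 across 175 bases, although the pair shares the promoter printed above. Hist2h2be averaged 10.9 FPKM beside 3.18 FPKM for Hist2h2ac. These levels are per kilobase of gene model, and the implied models were of unequal length. They had 728 bases for Hist1h2bc and 2493 for Hist1h2ac, and 2618 for Hist2h2be and 390 for Hist2h2ac. In knockout replicate 1 the reads were 729 and 86 for the first pair and 426 and 35 for the second. Hist1h2bg and Hist1h2ae had models of 615 and 704 bases, with 499 and 34 reads in that library. Other pairs were closer: Hist1h2bf averaged 0.943 FPKM beside 0.958 FPKM for Hist1h2ad, and Hist1h2bn averaged 3.53 FPKM beside 6.46 FPKM for Hist1h2ak. The pair Hist1h2ao and Hist1h2bq, at 6.73 and 0.0198 FPKM, was outside these 9 pairs. Its H2A gene was higher in all 9 libraries, but the pair is uncertain. Hist1h2ao shares 93.5% of its 50-base words with Hist1h2ap and Hist1h2bq shares 97.3% with Hist1h2br, so reads could be split or lost between copies. In all, 27 of the 62 member genes shared most of their 50-base words with other members, and 6 shared none. Among the 27 were Hist1h2bn (86.4%), Hist1h2ad (67.1%), Hist1h2bf (65.8%) and Hist1h2ak (52.3%), so the closer pairs above carry the same uncertainty.

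**Figure D2:**
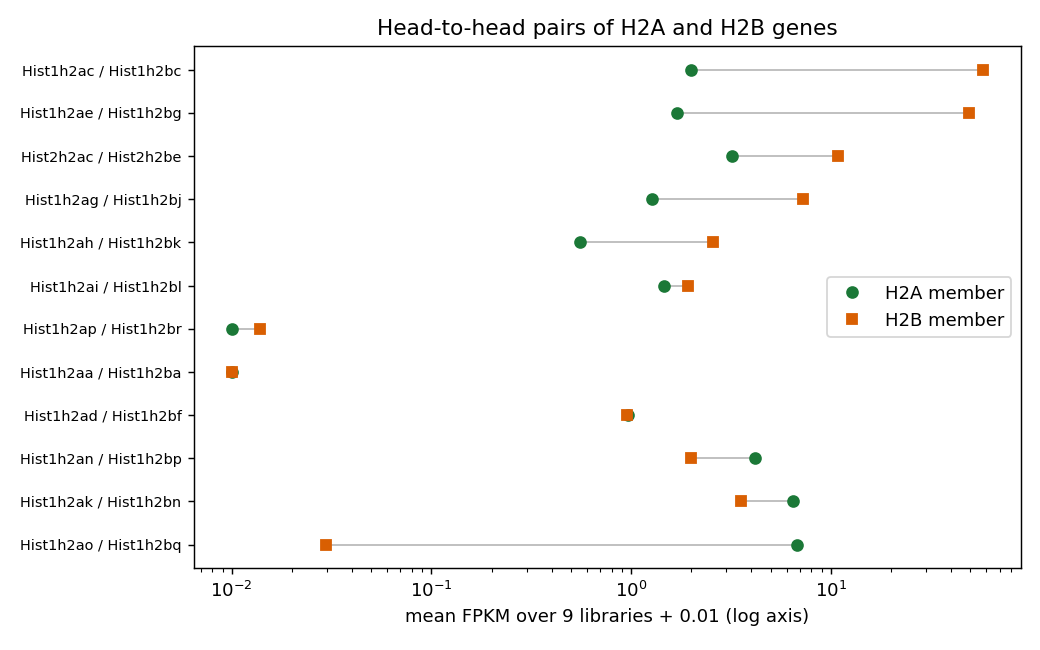
Mean FPKM over 9 libraries (plus 0.01, log axis) of the H2A gene (circles) and the H2B gene (squares) of each of the 12 head-to-head pairs. The H2B genes Hist1h2bc, Hist1h2bg, Hist2h2be and Hist1h2bj stand above their H2A partners, and the pair Hist1h2ad and Hist1h2bf coincides.

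Across libraries the 7 leading and the 42 lower members parted most in heterozygous replicate 2. Both sets were low in knockout replicate 2 and wildtype replicate 2. For the 42 tested members under 10 FPKM, the summed level was 217.8, 82.4 and 124.5 FPKM in knockout, 137.9, 287.0 and 132.2 FPKM in heterozygous and 147.5, 68.3 and 157.0 FPKM in wildtype libraries. Heterozygous replicate 2 was highest and wildtype replicate 2 lowest, 4.20 times apart. The 95% Poisson interval of the sum was 271 to 304 FPKM in heterozygous replicate 2 (1141 reads) and 62.0 to 75.1 FPKM in wildtype replicate 2 (425 reads), which covers counting error only. For the 7 members at 10 FPKM or more, the summed level was 306.5, 147.3 and 241.3 FPKM in knockout, 280.7, 159.1 and 199.1 FPKM in heterozygous and 353.3, 179.3 and 349.5 FPKM in wildtype libraries. Here replicate 2 was the lowest library of every genotype, heterozygous replicate 2 included.

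Heterozygous replicate 2 was the highest of the 9 libraries for 24 of the 42 lower members and for 0 of the 7 leading members. Among the 4395 tested genes in the same range of mean FPKM as the lower members, it was highest for 11.9%. Knockout replicate 1 was highest for a further 11 of the 42, against 6.33% of those 4395 genes. Knockout replicate 2 or wildtype replicate 2 was the lowest library for 33 of the 42, against 9.99% and 6.39% of those 4395 genes, in that order. The H4 genes were the most marked: heterozygous replicate 2 was highest for 9 of their 11 lower members, with a median of 1.15 above the gene's median over the 9 libraries on the log2(FPKM + 1) scale. It was highest for 4 of 6 H3, 5 of 9 H2B, 4 of 12 H2A and 1 of 3 H1 members under 10 FPKM, and for the joint row. This library was also the shallowest, and the part of depth in its histone levels was not tested. The median of the 42 lower members on the same scale was 0.77 in this library. In the other libraries under 10 M it was -0.45 (knockout replicate 2), 0.004 (wildtype replicate 1) and -0.66 (wildtype replicate 2).

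**Figure D3:**
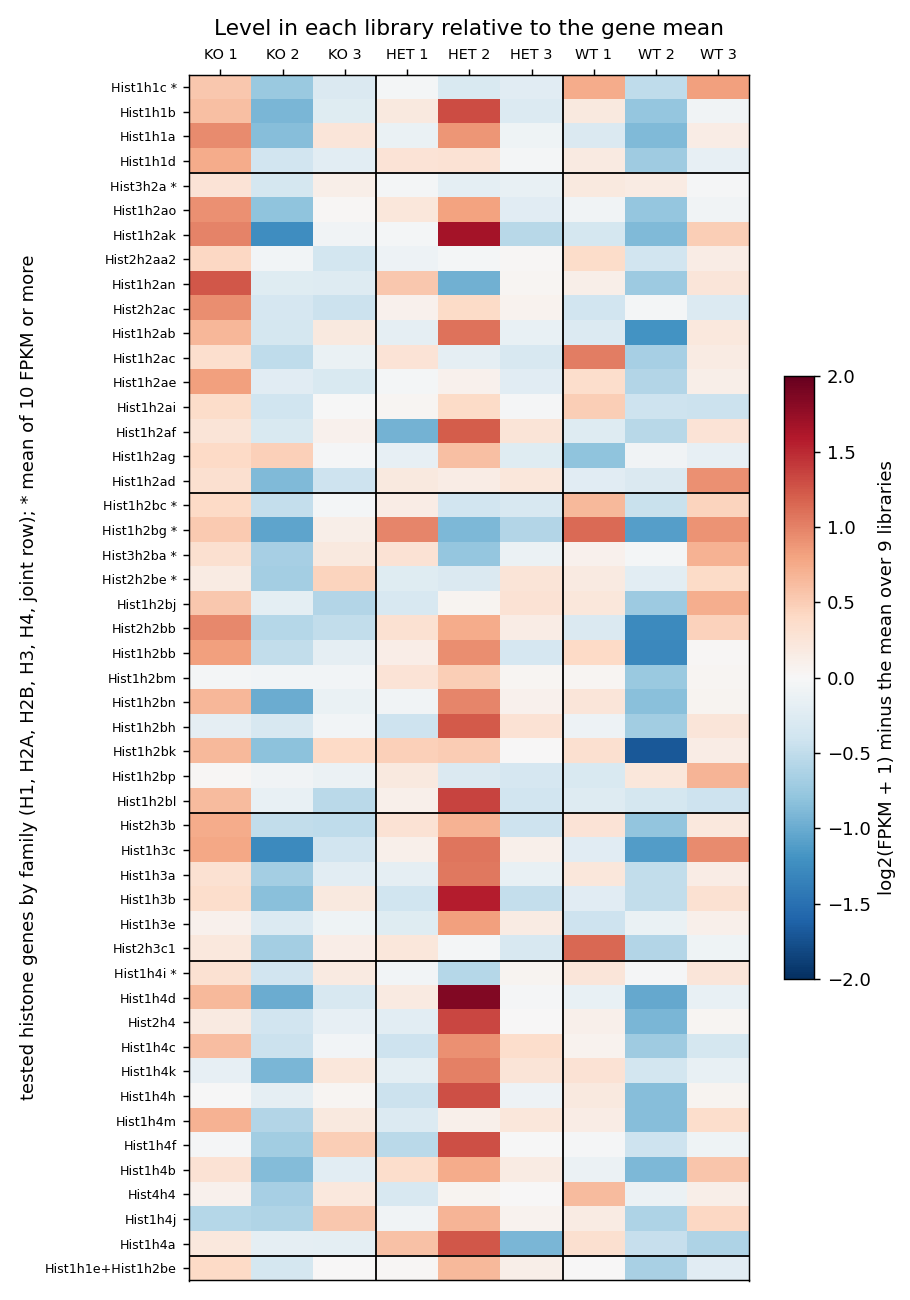
log2(FPKM + 1) of the 49 tested members in each library, less the gene's mean over 9 libraries (red higher, blue lower), by family and falling level; an asterisk marks a mean of 10 FPKM or more. The column of heterozygous replicate 2 is red for most H4 and H3 genes and blue for the 7 marked genes, and the columns of knockout replicate 2 and wildtype replicate 2 are blue for most rows.

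By the ratio of the highest to the lowest library on the FPKM + 1 scale, Hist1h2ak (7.45) and Hist1h4d (7.38) varied most, followed by Hist1h3b (5.27). Other measures of spread rank the members differently. Hist1h4d (chr13:23581598-23582735, plus strand), whose promoter is printed above, had 11.6, 3.05 and 5.42 FPKM in knockout, 8.10, 28.1 and 6.93 FPKM in heterozygous and 6.28, 2.94 and 6.23 FPKM in wildtype libraries. It was counted by 64 reads in heterozygous replicate 2 and by 9 reads in wildtype replicate 2. All 3 heterozygous libraries were above all 3 wildtype libraries, 2 of them by less than 2 FPKM. Hist1h2ak, an H2A gene, had 11.2, 1.62 and 4.89 FPKM in knockout, 4.99, 18.5 and 3.17 FPKM in heterozygous and 3.81, 2.34 and 7.61 FPKM in wildtype libraries, and the genotypes overlapped. Hist1h3b, an H3 gene, had 3.04, 0.772 and 2.62 FPKM in knockout, 1.38, 8.34 and 1.28 FPKM in heterozygous and 1.68, 1.24 and 2.91 FPKM in wildtype libraries. For these 3 genes the highest of the 9 libraries was heterozygous replicate 2.

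The histone genes did not have the library profile of the S phase genes listed with them. Wildtype replicate 3 was the highest library for 30 of 30 S phase genes (Pcna, the replication clamp, among them) and for 5 of the 49 tested histone genes. Among all 9543 genes tested it was highest for 31.1%. Pcna had 654.6, 541.0 and 656.8 FPKM in knockout, 591.0, 636.4 and 571.5 FPKM in heterozygous and 541.2, 629.3 and 886.3 FPKM in wildtype libraries. In heterozygous replicate 2 the median S phase gene lay 0.016 above its own median over the 9 libraries (log2 scale), against 0.77 for the lower histone members. The median of the 7 leading members was, like that of the S phase genes, highest in wildtype replicate 3 (0.49 and 0.61). Both were low in knockout replicate 2 (-0.52 and -0.21). They parted in wildtype replicate 1 (0.23 and -0.35) and in heterozygous replicate 2 (-0.46 and 0.016). Wildtype replicate 3 was the highest library for 2 of the 7.

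**Figure D4:**
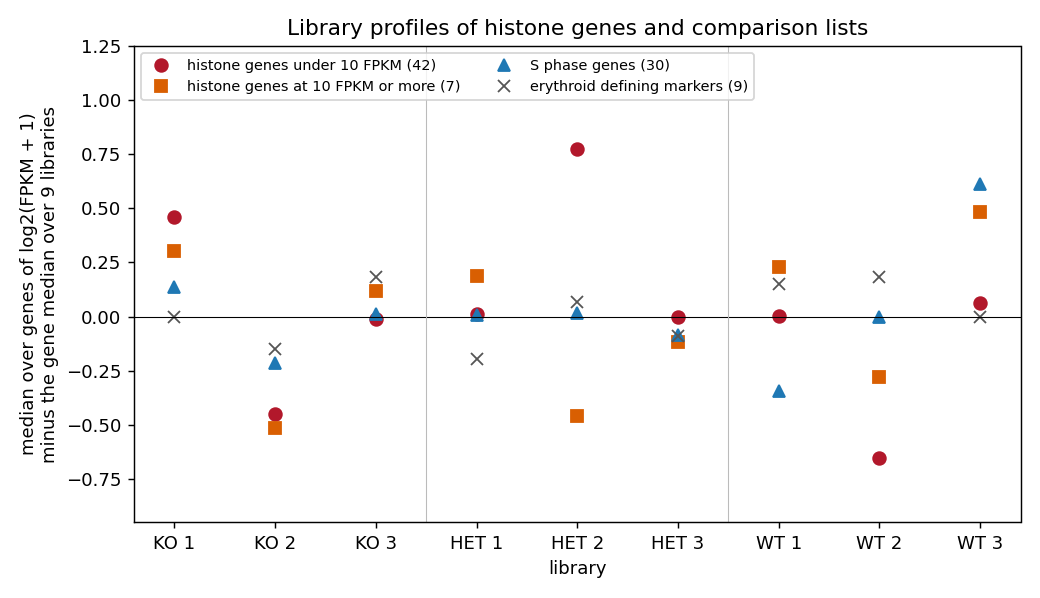
Median over genes of log2(FPKM + 1) less the gene's median over 9 libraries, for each library, with knockout left, heterozygous in the middle and wildtype right. In heterozygous replicate 2 the 42 lower members lie at 0.77, the 7 leading members at -0.46 and the S phase genes near 0.02. Wildtype replicate 3 is the highest library of the S phase genes and of the 7 leading members.

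No member differed between genotypes past the threshold. In knockout versus wildtype, 0 of 49 tested members had a limma adjusted p below 0.05, beside 0% of all 9543 genes tested, and 0 members against 43 genes had an unadjusted p below 0.05. In heterozygous versus wildtype the counts were again 0 of 49 members and 0% of all genes, with 0 members and 113 genes at an unadjusted p below 0.05. In knockout versus heterozygous they were 0 of 49 members and 0% of all genes, with 0 members and 56 genes. Limma gave 0.0575 as the lowest unadjusted p of any member, for Hist1h2bm in heterozygous versus wildtype. The comparisons share libraries, so their values are given side by side and are not independent.

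The power for these genes was limited. The 95% interval of the difference reached a median of 0.89 to either side on the log2(FPKM + 1) scale for the tested members and 0.42 for all genes tested. The interval lay wholly within a 2-fold change of FPKM + 1 in either direction for 14 of 49 members in knockout versus wildtype. The count was 10 in heterozygous versus wildtype and 20 in knockout versus heterozygous. For all genes tested the shares were 86.6%, 85.2% and 86.4%. A 2-fold change of FPKM itself is smaller on this scale, most of all for low genes. The counts and shares are therefore upper limits for it. A 2-fold difference was therefore not excluded for most members.

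The median log2 difference of the 49 tested members was 0.06 in knockout versus wildtype, with 29 positive, beside 0.01 over all genes. It was 0.40 in heterozygous versus wildtype, with 34 positive, beside -0.002 over all genes. It was -0.22 in knockout versus heterozygous, with 13 positive, beside 0.004 over all genes. Single libraries decided these medians. Without heterozygous replicate 2 the heterozygous versus wildtype median was 0.09 and the knockout versus heterozygous median -0.02. Without wildtype replicate 2 the heterozygous versus wildtype median was 0.13 and the knockout versus wildtype median -0.17, and without knockout replicate 1 the last was -0.18 and the knockout versus heterozygous median -0.43. Without knockout replicate 2 the knockout versus heterozygous median was 0.05 and the knockout versus wildtype median 0.27.

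The leading and lower members differed in sign. All 7 leading members averaged lower in knockout than in wildtype (median log2 difference -0.26) and lower in heterozygous than in wildtype (median -0.40), under quantile normalization and a rescaling to equal totals too. Without knockout replicate 2, only 2 of the 7 averaged lower in knockout than in wildtype, with a median of 0.01. With 1 library left out, the median of these 7 ranged from -0.48 to 0.01 in knockout versus wildtype, and was -0.07 without wildtype replicate 1 and -0.14 without wildtype replicate 3. In heterozygous versus wildtype it was -0.16 without heterozygous replicate 2 and -0.20 without wildtype replicate 1, with all 7 lower in both. Of the 42 lower members, 29 averaged higher in knockout than in wildtype (median 0.14) and 34 higher in heterozygous than in wildtype (median 0.43). Without heterozygous replicate 2 the second count was 29 and the median 0.12, and without wildtype replicate 2 they were 30 and 0.19. In the fit on only the 5 deeper libraries, 15 of the 42 were higher in heterozygous than in wildtype (median -0.18), so the leading and lower members no longer differed in the sign of their median in that comparison. Without knockout replicate 1 only 11 of the 42 averaged higher in knockout than in wildtype, and without wildtype replicate 2 only 12. The split was drawn after the values were seen and was given no test. Marker lists of other cells and of erythroid maturation also lay in one direction in the same comparisons. The log2 difference was positive for 12 of 12 tested B cell markers in knockout versus wildtype and in heterozygous versus wildtype. It was positive for 11 of 12 macrophage and monocyte markers in knockout versus wildtype and for 12 of 12 in heterozygous versus wildtype, and for 9 of 11 T and NK cell markers in both. Of 10 neutrophil markers it was positive for 10 in knockout versus wildtype and for 1 in heterozygous versus wildtype. Of 18 late erythroid maturation genes it was positive for 2 in knockout versus wildtype and for 0 in heterozygous versus wildtype. The summed macrophage and monocyte markers ranged from 440 to 1499 FPKM in knockout, from 736 to 931 FPKM in heterozygous and from 142 to 1432 FPKM in wildtype libraries. The B cell markers' summed level ranged from 361 to 901 FPKM in knockout, from 650 to 866 FPKM in heterozygous and from 92.0 to 1454 FPKM in wildtype libraries. No gene of these lists was at 0 in every library, and their part in the histone levels was not tested. Fits with a leukocyte marker term gave members' medians of 0.09 (knockout versus wildtype), 0.43 (heterozygous versus wildtype) and -0.22 (knockout versus heterozygous). With a depth term they were 0.12, 0.43 and -0.23. In the marker fit 5 members had an unadjusted limma p below 0.05 in heterozygous versus wildtype, beside 313 of all 9543 genes, and 0 passed the threshold.

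By family, the summed level of H1 was 49.8 ± 25.8 FPKM in knockout, 50.8 ± 7.51 in heterozygous and 63.8 ± 27.2 in wildtype libraries (mean ± SD, n = 3 each, here and below). H2A summed to 52.0 ± 25.4 FPKM in knockout, 53.6 ± 15.2 in heterozygous and 44.6 ± 10.4 in wildtype libraries. The H2B sum was 176.7 ± 65.8 FPKM in knockout, 177.5 ± 45.1 in heterozygous and 215.1 ± 85.5 in wildtype libraries. For H3 it was 13.6 ± 8.03 FPKM in knockout, 20.0 ± 12.0 in heterozygous and 14.6 ± 6.54 in wildtype libraries. H4 summed to 80.9 ± 24.6 FPKM in knockout, 96.7 ± 29.5 in heterozygous and 80.3 ± 18.0 in wildtype libraries. In each family the differences between these means were smaller than the largest SD of the 3 genotypes.

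**Figure D5:**
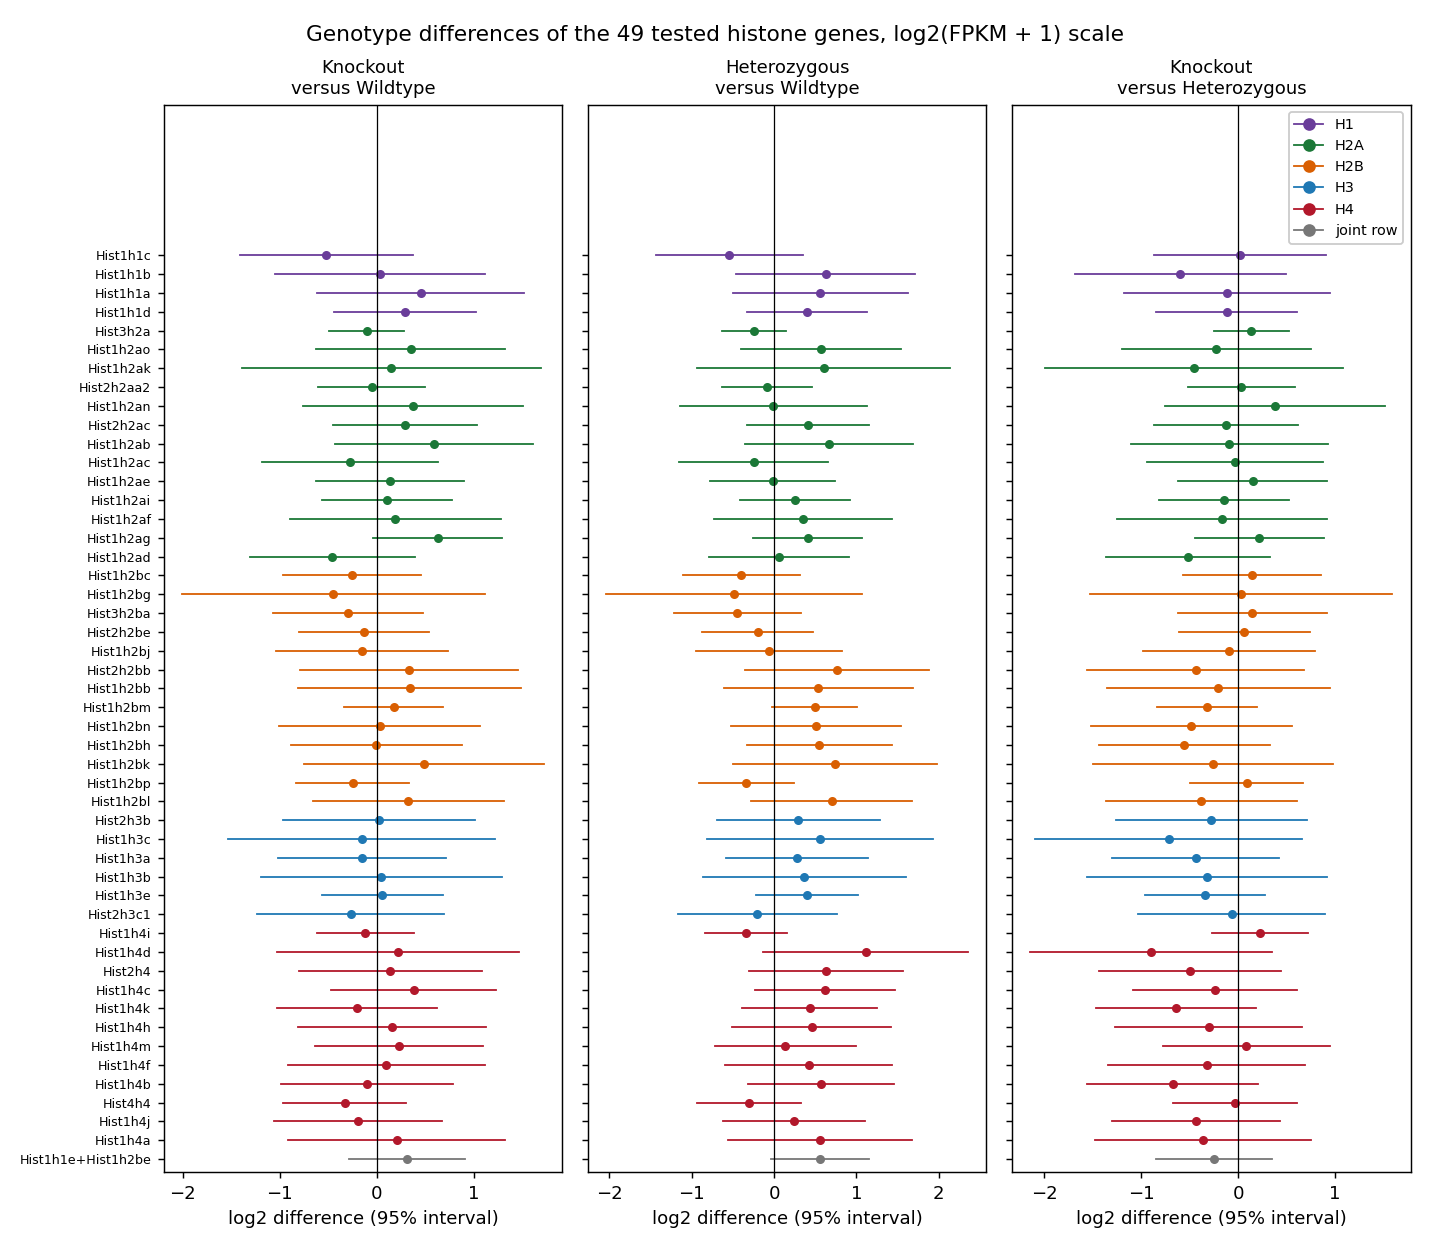
Log2 differences (log2(FPKM + 1) scale, with 95% intervals) of the 49 tested members in each comparison, by family and falling level. Every interval crosses 0, and those of Hist1h2ak, Hist1h2bg and Hist1h3c are among the widest.

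Members whose genotypes did not overlap were few. In knockout versus wildtype it was Hist1h2ag alone, which had 1.87, 2.01 and 1.14 FPKM in knockout and 0.244, 1.08 and 0.949 FPKM in wildtype libraries, 1 of 49 members beside 1.08% of all genes tested in this direction. No member lay wholly lower in knockout (1.4% of all genes did). Hist1h2ag, an H2A gene, rested on 12, 9 and 7 reads in knockout against 1, 5 and 6 in wildtype libraries. It shares 78.9% of its 50-base words with other members. Its log2 difference was 0.62 ± 0.29 (SE; limma adjusted p 0.9997). Hist1h2ab, another H2A gene with one of the 3 lowest p in this comparison, was at 0.58 ± 0.45.

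In heterozygous versus wildtype, 4 members lay wholly higher (Hist1h4d, Hist1h2bm, Hist2h2ac and the joint row of Hist1h1e and Hist1h2be), beside 1.29% of all genes tested. Hist3h2a alone lay wholly lower, beside 3.07%. Hist1h2bm, an H2B gene, had 4.81, 5.76 and 3.96 FPKM in heterozygous and 3.93, 1.87 and 3.93 FPKM in wildtype libraries. The nearest libraries of the 2 genotypes were 0.03 FPKM apart. Its log2 difference was 0.49 ± 0.23 (SE; limma adjusted p 0.9999). The joint row had 2.28, 4.04 and 2.48 FPKM in heterozygous and 2.23, 1.06 and 1.73 FPKM in wildtype libraries, with a difference of 0.55 ± 0.26. Hist1h4d was at 1.11 ± 0.55, and at 0.52 without heterozygous replicate 2.

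In knockout versus heterozygous, Hist1h2bm alone lay wholly lower in knockout, at 3.67, 3.61 and 3.63 FPKM in knockout against 4.81, 5.76 and 3.96 FPKM in heterozygous libraries, 1 of 49 members beside 1.88% of all genes tested. No member lay wholly higher (2.61% of all genes did). The members with the lowest p were H4 genes. Hist1h4k was at -0.64 ± 0.37 and Hist1h4b at -0.67 ± 0.39 (log2 difference, SE), and Hist1h4d at -0.90 ± 0.55. Limma gave each an adjusted p of 0.9996. Without heterozygous replicate 2 Hist1h4d was at -0.30, Hist1h4k at -0.31 and Hist1h4b at -0.51. Without knockout replicate 2 they were at -0.51, -0.33 and -0.37 in the same order. Hist1h4k had 3.54, 1.70 and 4.93 FPKM in knockout and 3.44, 9.23 and 5.04 FPKM in heterozygous libraries, so the genotypes overlapped. Of their 50-base words, Hist1h4k shares 71.5%, Hist1h4b 54.6% and Hist1h4d 10.2% with other members.

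The genes that transcribe and process histone mRNA did not pass the test either. Of 25 listed genes for histone transcription and 3′ end processing, 23 were tested and 0 passed in any comparison. E2f2, a transcription factor of the cell cycle and the most abundant of the list, averaged 351.2 ± 51.6 FPKM in knockout, 338.2 ± 10.5 in heterozygous and 361.6 ± 22.9 in wildtype libraries. Slbp, which binds the hairpin, had 304.4, 235.0 and 299.3 FPKM in knockout, 285.9, 273.1 and 267.5 FPKM in heterozygous and 204.9, 305.8 and 357.5 FPKM in wildtype libraries. In heterozygous replicate 2 it lay between the other heterozygous libraries. Npat, the coactivator of histone transcription that cyclin E and CDK2 phosphorylate, averaged 7.75 ± 1.12 FPKM in knockout, 7.79 ± 0.67 in heterozygous and 7.93 ± 2.07 in wildtype libraries. Casp8ap2, the processing factor also called FLASH, averaged 8.62 ± 1.86 FPKM in knockout, 9.07 ± 0.64 in heterozygous and 9.62 ± 3.11 in wildtype libraries. Lsm10, a protein of the U7 particle that directs cleavage after the hairpin, averaged 5.29 ± 1.03 FPKM in knockout, 4.55 ± 0.50 in heterozygous and 4.63 ± 0.64 in wildtype libraries. Its partner Lsm11 was below the filter, at 0.479, 0.443 and 0.429 FPKM in knockout, 0.431, 0.467 and 0.447 FPKM in heterozygous and 0.553, 0.601 and 0.579 FPKM in wildtype libraries. All 6 libraries with a null allele were below all 3 wildtype libraries for Lsm11, which was not tested because of its low level. Of the genes tested, 1.4% lay wholly lower in knockout than in wildtype and 3.07% wholly lower in heterozygous than in wildtype.

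The histone variants outside the member rule, most of whose mRNAs carry poly(A) tails, were led by genes with far higher FPKM than any member. Of 11 listed, 10 were tested and 0 passed in any comparison. H3f3a, one of a pair of genes for the replacement H3 variant, averaged 917.4 ± 58.3 FPKM in knockout, 831.9 ± 124.2 in heterozygous and 945.1 ± 61.6 in wildtype libraries. H3f3b, the other, had 378.8, 244.1 and 275.7 FPKM in knockout, 349.2, 244.5 and 243.2 FPKM in heterozygous and 419.6, 301.8 and 544.3 FPKM in wildtype libraries. Its log2 difference was -0.48 ± 0.25 for knockout versus wildtype and -0.58 ± 0.25 for heterozygous versus wildtype (SE; limma adjusted p 0.9997 and 0.9999). H2afx, whose protein is phosphorylated at DNA breaks, averaged 208.6 ± 41.0 FPKM in knockout, 212.9 ± 28.3 in heterozygous and 220.0 ± 44.0 in wildtype libraries. H2afz averaged 166.3 ± 25.8 FPKM in knockout, 152.4 ± 11.1 in heterozygous and 163.9 ± 24.4 in wildtype libraries. Cenpa, the H3 variant of centromeres, averaged 185.0 ± 43.3 FPKM in knockout, 152.2 ± 28.2 in heterozygous and 171.6 ± 42.3 in wildtype libraries. H1f0, the linker histone of resting and maturing cells, averaged 5.18 ± 2.00 FPKM in knockout, 4.73 ± 0.37 in heterozygous and 7.90 ± 5.75 in wildtype libraries, and its highest value, 14.5 FPKM, was in wildtype replicate 3.

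Histone chaperones carry new histones to DNA. Of 23 listed, 23 were tested and 0 passed in any comparison. Nasp, which binds H1 and the H3 and H4 pair, averaged 45.5 ± 7.20 FPKM in knockout, 45.9 ± 0.92 in heterozygous and 54.3 ± 20.5 in wildtype libraries. Asf1b, the most abundant of the list, averaged 187.7 ± 39.3 FPKM in knockout, 172.5 ± 10.8 in heterozygous and 184.2 ± 35.0 in wildtype libraries. Of the 20 G2 and mitosis genes and the 18 tested genes of late erythroid maturation, 0 passed in any comparison. Ube2c, which leads the mitotic list, averaged 928.3 ± 48.7 FPKM in knockout, 905.6 ± 98.6 in heterozygous and 978.2 ± 58.7 in wildtype libraries. Alas2, the erythroid enzyme that starts heme synthesis, averaged 4539 ± 1971 FPKM in knockout, 4445 ± 2610 in heterozygous and 5846 ± 1579 in wildtype libraries.

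The lists of markers for other blood cells held 0 genes past the threshold in any comparison. Lyz2, the leading macrophage and monocyte marker, averaged 194.9 ± 85.3 FPKM in knockout, 202.1 ± 92.4 in heterozygous and 193.8 ± 148.6 in wildtype libraries. S100a9, the leading neutrophil marker, averaged 358.4 ± 175.6 FPKM in knockout, 210.3 ± 94.7 in heterozygous and 344.4 ± 212.0 in wildtype libraries. Lck of T cells, Gp9 of platelets and Prss34 of basophils averaged 16.1, 28.2 and 11.6 FPKM in knockout, 14.8, 26.0 and 7.80 FPKM in heterozygous and 17.3, 26.1 and 14.4 FPKM in wildtype libraries. For Cd74, Lyz2 and Prss34 the SD among the wildtype libraries was the largest of the 3 genotypes.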

How the data were processed

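The authors deposited 1 table of FPKM values (nominally reads per kilobase and per 1e6 reads) for 20368 genes, with 1 column for each of the 9 libraries. Per the submitters' processing notes, TopHat, Picard, DESeq2 and mm10 were used, with no versions or roles. No source used here gives the annotation, strand, read layout or RNA selection, so antisense and overlapping genes can share reads. For all 14147 genes that 2 or more libraries list above 0, the values were whole reads (within 0.05 of a read) times a step per gene, divided by a size factor per library. These factors equalled median-of-ratios factors of the recovered reads (the median over genes of reads relative to the gene's geometric mean). Knockout replicate 2 was at 0.695 relative to knockout replicate 1 in both, where the totals were 8.58 and 13.34 M. The recovered reads give the depth, 7.05 to 14.23 M, and intervals from them cover counting error only. All 36 pairs of libraries differed beyond sampling noise, with a chi-square of 8.69 per degree of freedom or more.

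Limma 3.58.1 in R 4.3.3 was fitted on log2(FPKM + 1), which understates changes of low genes, over the 9543 genes at 1 FPKM or above in 3 or more libraries. All 9 libraries entered with 1 mean per genotype and eBayes with a trend. Tests were 2-sided, with Benjamini-Hochberg adjusted p below 0.05 over all genes tested as the threshold, and the fit was tested on simulated data. Gene models were matched to GENCODE M21, where 59 of 62 member genes matched by ID and symbol, and promoters to RefSeq. Hist2h2bb, Hist1h2bm and Hist1h2bh did not match. Python 3.11.15 with numpy 2.4.6, pandas 2.3.3, scipy 1.17.1 and matplotlib 3.10.9 was used for the rest.

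The members and lists were chosen with earlier results of these data known. Genes were named by rule: the 3 most abundant members of each family, the 3 lowest p per comparison, the 3 largest ranges, 13 fixed genes (Slbp, Npat, Casp8ap2, Lsm10, Lsm11, H2afx, H2afz, H3f3a, H3f3b, H1f0, Cenpa, Nasp and Pcna) and the most abundant gene of each list. Members whose genotypes did not overlap, Hist2h2be and those of the head-to-head pairs were named after their values were seen. The alternatives were other pseudocounts, filters, scalings and terms, voom on the recovered reads, a replicate block, only the deeper libraries, and each library left out. Replicate numbers come from the labels. Between libraries of the same number, deviations from the group mean correlated at 0.20, 0.18 and 0.41 between knockout and heterozygous, all over 0.1. The numbers were therefore read as possible pairs for these genotypes and a replicate block was run, while the main fit was unpaired. Libraries of different numbers were not correlated for reference, so a pairing is not established. No label states a shared litter, batch or day.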

Additional observations from a re-analysis of the deposited data

How the results depend on the processing

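For the counts of genes and of members past the threshold, 21 alternatives were run in each of 3 comparisons. The count stayed at 0 of all genes and 0 members in each, apart from the fit on only the 5 deeper libraries, where wildtype is the lone replicate 3, assumed to vary like the other groups. There limma called 929 genes in knockout versus wildtype and 1864 in heterozygous versus wildtype. The second count held 1 member, Hist1h3b, at -0.75 (log2 difference, adjusted p 0.040), against 0.37 over all libraries. In that fit the median difference of the tested members in heterozygous versus wildtype was -0.23. In knockout versus heterozygous it was 0.21 with 43 of 49 positive, against -0.22 and 13, and Hist1h4k was at 0.0015 and Hist1h4d at 0.080, both reversed in sign. The cause was not tested. With 1 library left out, the members' median ranged from -0.18 to 0.27 in knockout versus wildtype, 0.09 to 0.51 in heterozygous versus wildtype and -0.43 to 0.05 in knockout versus heterozygous. The counts stayed at 0 in these fits.

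The replicate block changed no call: limma with the block called 0 genes and 0 members in knockout versus heterozygous, and 0 in the comparisons with wildtype. Wildtype numbers were not taken to pair (-0.57, 0.51 and 0.33 with knockout, and 0.13, 0.18 and 0.0014 with heterozygous). Rescaling each library to a sum of 1e6 shifted the median of all genes by 0.07, 0.14 and -0.07 in the 3 comparisons in the order above, and the members' medians became 0.13, 0.61 and -0.33. Counts of lower and leading members by sign were also taken under every alternative, a choice made after seeing the data. With only the 5 deeper libraries, 15 of the 42 lower members were positive in heterozygous versus wildtype, against 34, and 36 in knockout versus heterozygous (median 0.18), against 6 (median -0.26). Of the 9 named member differences, picked in these same data as the 3 lowest p per comparison, 182 of 184 alternatives kept the direction. Dropping the trend, adding the replicate block or fitting only the pair's libraries left every difference unchanged by construction. So did leaving out a library of the genotype outside the comparison. The count is therefore no measure of stability. Levels moved past 1 SD in 60 of 300 alternatives, each a quantile normalization or the rescaling to 1e6, which changes the unit. Leaving out 1 of 3 libraries cannot move a mean by 1 SD of the same 3, so those alternatives say nothing on stability.

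Depth limits the 42 tested members under 10 FPKM, which together had 425 reads in wildtype replicate 2. Copies with near-identical sequence cannot be told apart.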
